A study of Mus musculus with 797 samples.

Results

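Gad1, Gad2, Slc32a1 and Abat, the genes that make, pack and break down the inhibitory transmitter GABA, were followed in single nuclei of the mouse brain. The 4 genes were taken by name, and each had 1 of the 32285 gene rows of the count table. Of 797 nuclei, 781 had at least 50000 gene reads and at least 1000 genes and were kept, and 413 of these held a read of at least 1 of the 4 genes. All nuclei came from C57Bl/6J mice that had been given, as young adults, 1 adeno-associated virus (AAV) in the PHP.eB capsid at 5e11 vector genomes per mouse. Every virus drove H2B-SYFP2, a yellow protein fused to a histone, and nuclei were sorted for that yellow signal 3 to 4 weeks after injection. The 16 test labels were AiE0078h, AiE0140h, AiE0387m, AiE0390m, AiE0391h, AiE0401h, AiE0410m, AiE0445h_3xC2, AiE0447h, AiE0450h, AiE0452h, AiE0475m, AiE0600m, AiE0682h, AiE0743m_3xC2 and AiE0779m, and the 4 reference elements were CMV, hSyn1, hI56i and DLX2.0. Each label kept 37 to 40 nuclei. The labels name no animal, so a vector label counts as 1 sample, and p-values over vector labels measure only the spread between these samples.

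GABA is made from glutamate by glutamate decarboxylase, which exists as a pair of enzymes. Gad1 encodes GAD67, found through the whole neuron, and Gad2 encodes GAD65, which is attached to synaptic vesicles and depends more on its cofactor pyridoxal phosphate. Slc32a1 encodes VGAT, the transporter that loads GABA and glycine into vesicles. Abat encodes GABA transaminase, the mitochondrial enzyme that degrades GABA in neurons and in astrocytes. In the cortex the first 3 genes are standard marks of inhibitory interneurons.

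On mm10 with GENCODE M21, Gad1 (ENSMUSG00000070880) lies on chromosome 2 from 70553072 to 70602014 and Gad2 (ENSMUSG00000026787) on the same chromosome from 22622205 to 22693874. Slc32a1 (ENSMUSG00000037771) spans 158610767 to 158615748 of chromosome 2, and Abat (ENSMUSG00000057880) spans 8513429 to 8621568 of chromosome 16. All 4 are on the plus strand. Slc32a1 is the compact one, with 2797 exonic bases in a span of 4982, while the spans of Gad1, Gad2 and Abat are 48943, 71670 and 108140 bases. Gad1os runs antisense to Gad1 without sharing exonic bases and had reads in 9 nuclei; Gm14205 runs antisense to Slc32a1, shares 697 exonic bases with it and had reads in 1 nucleus. The strand setting of the counting is not given in the sources used here, so reads of these antisense pairs cannot be told apart.

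Since the next sections compare Gad1 with Gad2, the likeness of their coding sequences is shown first. The coding sequences, of 1779 and 1755 bases, matched at 67.1% of 1740 aligned bases. The longest run shared exactly was 17 bases, in the exons that encode the part of the enzyme with the cofactor-binding lysine. In the stretches below, read from the GENCODE M21 coding sequence on the plus strand of chromosome 2, capitals mark bases common to both genes.
Gad1 coding bases 1186 to 1238: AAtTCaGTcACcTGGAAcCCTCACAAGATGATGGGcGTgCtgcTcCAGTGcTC
Gad2 coding bases 1162 to 1214: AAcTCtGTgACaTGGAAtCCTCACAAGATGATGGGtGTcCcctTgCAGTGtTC

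Gad1, Gad2 and Slc32a1 were all read in 111 of the 781 kept nuclei. The sequence just upstream of their starts is also given, from RefSeq on GRCm38.p6, the assembly behind mm10. The 250 bases before each start were read and are printed up to the first annotated exon, with CpG dinucleotides in capitals. The Gad1 stretch, at chr2:70561879-70562041, lies inside the annotated span of Gad1, the Gad2 stretch at chr2:22622077-22622204 ends just before the gene's first base, and the Slc32a1 stretch is at chr2:158610508-158610757. All are on the plus strand.
Gad1: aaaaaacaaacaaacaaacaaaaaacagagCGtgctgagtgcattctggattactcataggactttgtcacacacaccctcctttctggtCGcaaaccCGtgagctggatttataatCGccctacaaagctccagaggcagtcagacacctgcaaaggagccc
Gad2: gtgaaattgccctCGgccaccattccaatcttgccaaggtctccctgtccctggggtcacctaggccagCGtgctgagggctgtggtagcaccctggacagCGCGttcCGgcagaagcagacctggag
Slc32a1: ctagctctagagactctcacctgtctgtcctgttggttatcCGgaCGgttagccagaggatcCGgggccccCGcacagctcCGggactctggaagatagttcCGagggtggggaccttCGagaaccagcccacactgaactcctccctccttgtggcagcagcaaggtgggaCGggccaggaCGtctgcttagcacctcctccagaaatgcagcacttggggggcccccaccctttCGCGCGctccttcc
The 250-base windows were 58%, 64% and 62.4% G or C for Gad1, Gad2 and Slc32a1, against a median of 52.4% over 32851 promoters. They held 17, 13 and 12 CpG, against a median of 6. The letters TAATTA, the core bound by many homeodomain factors, were in none of the 3 windows and in 4.84% of all promoters. The letters GGGCGG or CCGCCC were in the Gad1 window, 8 bases before the start and so in its exonic part, which is not printed, and in 32.7% of all promoters. A match or its lack describes these letters only.

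Nuclei were grouped without using the 4 genes, by 10 CPM (counts scaled to 1000000 reads per nucleus) or more of a gate gene. A nucleus was Pvalb-gated, Sst-gated, Adarb2-gated or Slc17a7-gated where exactly 1 of these genes reached that level. Pvalb and Sst mark interneurons of the medial ganglionic eminence, Adarb2 those of the caudal ganglionic eminence, and Slc17a7 encodes VGLUT1, which fills the synaptic vesicles of cortical excitatory neurons with glutamate. The gates took 126, 88, 46 and 350 nuclei. In all, 303 nuclei were interneuron-gated, that is at 10 CPM for Pvalb, Sst or Adarb2 and below it for Slc17a7. At least 3 of 6 GABAergic markers (Dlx1, Dlx2, Dlx5, Dlx6os1, Erbb4, Nxph1) were read in 62.7% of Pvalb-gated, 39.8% of Sst-gated, 76.1% of Adarb2-gated and 0 of 350 Slc17a7-gated nuclei. At least 3 of 6 glutamatergic markers were read in 0 of 303 interneuron-gated nuclei and in 66.6% of Slc17a7-gated nuclei. Slc17a7 is itself on that list, so both shares are partly set by the gates. At least 3 of the 5 others were read in 132 of the 388 nuclei that had Slc17a7 and not Gad1 at 10 CPM. Every nucleus is labelled striatum. At least 3 of 10 markers of the striatal spiny projection neurons were read in 1.65% of interneuron-gated and 4.29% of Slc17a7-gated nuclei. Of the 10, Adora2a and Isl1 had no read in either class. Tac1 was read in 24.1% of interneuron-gated and Ppp1r1b in 18.6% of Slc17a7-gated nuclei, the highest of the list in each class. The gates do not select spiny projection neurons, so the shares in these classes cannot decide on the label. Of the 43 nuclei that reached no gate, 0 had at least 3 of the 10 markers. Kept nuclei had 50565 to 666436 reads with a median of 292895, and medians of 316264 and 279244 reads in interneuron-gated and Slc17a7-gated nuclei. Libraries belonged to 3 sets by the prefix of their names, called A (516 nuclei), B (178) and C (87) here. Set B stood apart: mitochondrial reads averaged 1.17% there, 0.0161% in set A and 0.0144% in set C.

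In interneuron-gated nuclei all 4 genes were higher than in Slc17a7-gated nuclei, and the first 3 were nearly absent from the Slc17a7-gated ones. Gad1 was read in 275 of 303 interneuron-gated nuclei (90.8%, exact 95% interval 86.9 to 93.8) and in 9 of 350 Slc17a7-gated nuclei (2.57%, 1.18 to 4.83). For Gad2 the shares were 72.6% and 1.43%, for Slc32a1 42.6% and 0.571%, and for Abat 38.9% and 10.6%. Intervals on shares cover counting error only. Abat was thus the member found most often in Slc17a7-gated nuclei, and 36 of these had Abat as their only member.

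**Figure D1:**
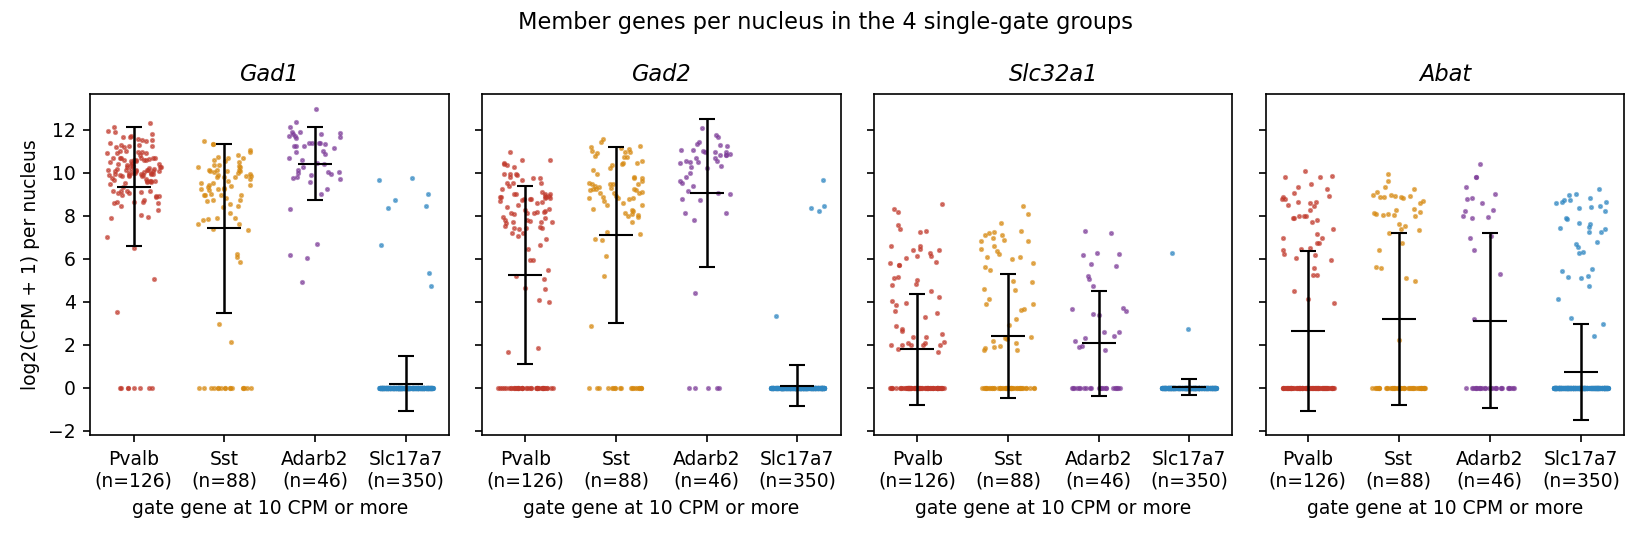
Each point is 1 nucleus; the vertical axis is log2(CPM + 1), and columns are Pvalb-gated (126), Sst-gated (88), Adarb2-gated (46) and Slc17a7-gated (350) nuclei, with black bars for the mean ± SD over nuclei. Gad1 fills nearly the whole of the 3 interneuron columns, Slc32a1 and Abat are at 0 in many of the same nuclei, and Abat is the gene with most points above 0 in the Slc17a7 column.

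Summed over the nuclei of each vector label, Gad1 ranged from 849 to 3019 CPM with a median of 1243 in interneuron-gated nuclei (15 labels with at least 3 such nuclei), and from 0 to 73.3 CPM with a median of 0 in Slc17a7-gated nuclei (19 labels, 12 of them at 0). Gad2 ranged from 247 to 2122 CPM with a median of 542 in interneuron-gated nuclei, and from 0 to 71.9 CPM in Slc17a7-gated nuclei, where 14 of 19 labels were at 0. These ranges did not overlap for either enzyme gene, but the share of all genes without overlap was not counted. Slc32a1, the vesicular transporter gene, ranged from 2.21 to 221 CPM with a median of 14.9 in interneuron-gated nuclei, against 0 to 3.26 CPM in Slc17a7-gated nuclei, so that the ends of its ranges overlapped. Abat, the degrading enzyme gene, lay between 22.2 and 399 CPM with a median of 128 in interneuron-gated nuclei and between 0 and 62.4 CPM with a median of 11.9 in Slc17a7-gated nuclei, so its ranges overlapped.

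The difference was tested with edgeR's quasi-likelihood test on the summed counts of the 14 vector labels that had at least 3 nuclei of each class, with the label as block and Benjamini-Hochberg adjustment over all genes tested. All 4 members were called higher, in a comparison that called 7.46% of 10745 genes and 3.73% as higher. The fitted log2 difference was 11.41 ± 1.07 (SE) for Gad1 (adjusted p = 1.98e-07, higher in 14 of 14 labels), 11.39 ± 0.92 for Gad2 (adjusted p = 1.80e-08, 14 of 14) and 8.83 ± 1.23 for Slc32a1 (adjusted p = 3.23e-05, 14 of 14). These 3 sizes rest on a small prior count, because most Slc17a7-gated sums were 0. Abat differed by 4.95 ± 1.21 (adjusted p = 0.011, higher in 13 of 14 labels). The median log2 difference over all genes tested was 0.27. For Abat the call was lost with set A alone (log2 difference 9.06, adjusted p = 0.511) and with label and set together as block (7.39, adjusted p = 0.128).

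Of 26 further genes of GABA and glutamate metabolism and transport, 16 could be tested between the same classes, and those called and reported here are Slc38a1 and Slc1a2. Slc38a1, a transporter of glutamine, the precursor from which neurons regain glutamate and GABA, was higher and averaged 281 ± 104 CPM in interneuron-gated and 114 ± 65.6 CPM in Slc17a7-gated sums (SD over 14 labels; log2 difference 1.39 ± 0.37, SE, edgeR adjusted p = 0.0188). Slc1a2, the glutamate transporter GLT-1, was lower, at 27.9 ± 24.1 CPM in interneuron-gated and 401 ± 154 CPM in Slc17a7-gated sums (log2 difference -4.33 ± 0.52, adjusted p = 4.63e-06). The astrocyte GABA transporter gene Slc6a11 was read in 2.97% of interneuron-gated and 2.29% of Slc17a7-gated nuclei and was too low to be tested. Over the 16 tested list genes the median log2 difference was 0.42.

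Among the interneuron groups, Pvalb-gated nuclei had more Gad1 than Sst-gated nuclei. Summed per vector label, Gad1 ran from 999 to 3262 CPM with a median of 1280 in Pvalb-gated nuclei (14 labels), against 470 to 1429 CPM with a median of 690 in Sst-gated nuclei (13 labels). The ranges overlapped, but within labels the order held in 11 of 12. Gad1 averaged 1440 ± 619 CPM in Pvalb-gated sums and 795 ± 302 CPM in Sst-gated sums of these 12 labels (SD), a log2 difference of 0.92 ± 0.17 (SE, edgeR adjusted p = 0.00421). Gad1 was the only member called, in a comparison that called 1.67% of 8625 genes, 0.916% as higher and 0.754% as lower, with a median of 0.49 over all genes. It was read in 93.7% of Pvalb-gated and 80.7% of Sst-gated nuclei. At least 2 of the 6 GABAergic markers were read in 114 of 126 Pvalb-gated and 60 of 88 Sst-gated nuclei, and among these alone the Gad1 difference was 0.94 (edgeR adjusted p = 0.039).

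Gad2 had lower values in most labels but did not pass the test. It ran from 76.1 to 983 CPM with a median of 295 in Pvalb-gated sums, against 84.3 to 2122 CPM with a median of 601 in Sst-gated sums. The mean was 352 ± 257 CPM in Pvalb-gated and 684 ± 592 CPM in Sst-gated sums of the 12 shared labels (SD), lower in Pvalb-gated nuclei in 10 of 12, with a log2 difference of -0.77 ± 0.34 (edgeR adjusted p = 0.430). Gad2 was read in 65.1% of Pvalb-gated and 77.3% of Sst-gated nuclei. Slc32a1 (log2 difference 0.59 ± 1.41, adjusted p = 0.953) and Abat (-0.12 ± 0.62, adjusted p = 0.982) had errors larger than their differences. For Gad1 the adjusted p was 0.0817 with set A alone at the same size (0.91), and 0.129 with at least 5 nuclei per group (0.71).

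**Figure D2:**
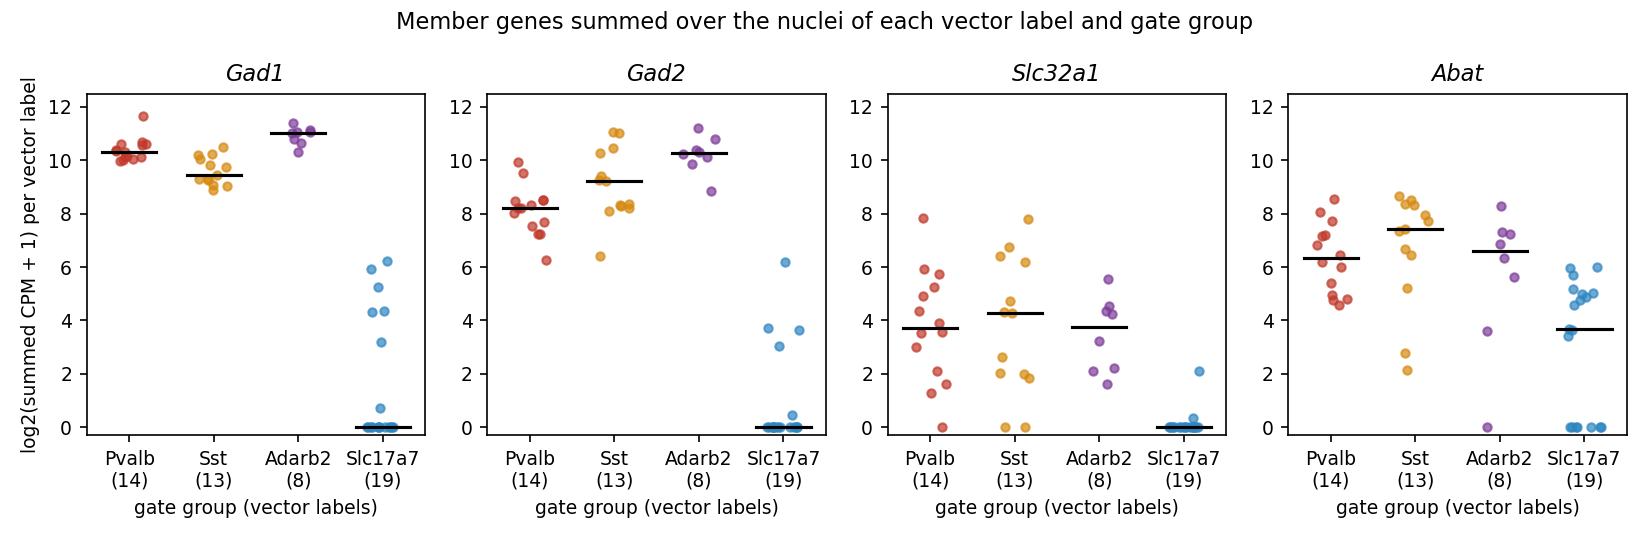
Each point is the sum over the nuclei of 1 vector label, as log2(summed CPM + 1), in Pvalb-gated (14 labels), Sst-gated (13), Adarb2-gated (8) and Slc17a7-gated (19) nuclei; black lines are medians. The order of the interneuron medians is Adarb2, Pvalb, Sst for Gad1 and Adarb2, Sst, Pvalb for Gad2, while the Slc32a1 columns overlap throughout.

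Adarb2-gated nuclei had the highest median over labels for both decarboxylase genes. Gad1 was read in 46 of 46 of them, at 1284 to 2663 CPM with a median of 2100 over 8 vector labels, and Gad2 in 41 of 46, at 462 to 2392 CPM with a median of 1238. Gad2 was lower in Pvalb-gated than in Adarb2-gated nuclei in 8 of 8 labels, at 219 ± 99.3 CPM and 1315 ± 575 CPM (SD), a log2 difference of -2.35 ± 0.43 (SE, edgeR adjusted p = 0.00494). That comparison called 1.15% of 7850 genes, 0.841% as higher and 0.306% as lower, and its median over all genes was 1.45. Gad1 averaged 1265 ± 236 CPM in Pvalb-gated and 1988 ± 426 CPM in Adarb2-gated sums and did not pass (-0.42 ± 0.24, adjusted p = 0.447, lower in 7 of 8 labels). On the mean of log2(CPM + 1) over nuclei, the other measure tried, Gad1 was lower in Pvalb-gated nuclei in 8 of 8 labels, with a difference of -1.31, at 9.20 in Pvalb-gated and 10.51 in Adarb2-gated nuclei (exact two-sided sign-flip permutation p = 0.00781, unadjusted and the smallest that 8 labels allow). Gad2 missed the threshold with set A alone (-1.86, adjusted p = 0.242), with label and set as block (-2.05, adjusted p = 0.113) and with at least 5 nuclei per group (-2.66, adjusted p = 0.366). Slc32a1 (0.20 ± 1.43, adjusted p = 0.960) and Abat (0.41 ± 1.34, adjusted p = 0.913) differed by less than their errors.

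Between Sst-gated and Adarb2-gated nuclei no member was called over 6 labels. By edgeR 0.368% of 7332 genes were called, 0.232% as higher and 0.136% as lower, and in simulated data of this size even large changes were not called, so the test could show little. The values were nonetheless ordered: Gad1 was lower in Sst-gated nuclei in 6 of 6 labels, at 809 ± 289 CPM against 1950 ± 497 CPM in Adarb2-gated nuclei (log2 difference -1.08 ± 0.34, unadjusted p = 0.0046, adjusted p = 0.324), and Gad2 in 6 of 6, at 580 ± 357 CPM against 1154 ± 444 CPM (-0.85 ± 0.41, adjusted p = 0.775). On the mean of log2(CPM + 1), Gad1 differed by -2.69, lower in Sst-gated nuclei in 6 of 6 labels (exact sign-flip permutation p = 0.0312, unadjusted and the smallest that 6 labels allow), and Gad2 by -2.49, lower in 5 of 6 (exact p = 0.0625). None of the 14 tested metabolism genes was called by edgeR in either comparison with Adarb2-gated nuclei. Between Pvalb-gated and Adarb2-gated nuclei 5 had an unadjusted p under 0.05 and DESeq2 called 4, and between Sst-gated and Adarb2-gated nuclei 0 had one and DESeq2 called 1. Over all genes DESeq2 called 2022 of 7850 in the first comparison and 839 of 7332 in the second, so its calls are not particular to these genes. The share of all genes with an unadjusted p under 0.05 was not counted. By DESeq2, Gad2 was called between Pvalb-gated and Adarb2-gated nuclei, and no member between Sst-gated and Adarb2-gated nuclei, where 2 members had an unadjusted edgeR p under 0.05. The 3 interneuron groups share vector labels, and each pair of comparisons shares 1 group.

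The balance of the pair was then taken within each vector label and group as the log2 ratio of summed Gad1 to summed Gad2 CPM, a measure chosen after the levels had been seen. The ratio was 2.24 ± 0.71 in Pvalb-gated and 0.61 ± 1.04 in Sst-gated nuclei (SD, n = 12 labels), and higher in Pvalb-gated nuclei in 11 of 12 labels. The mean difference was 1.64 ± 1.13 (exact two-sided sign-flip permutation test, p = 0.000977, 0.00293 after adjustment over 3 pairs of groups). AiE0743m_3xC2, with 7 Pvalb-gated and 3 Sst-gated nuclei, was the label with the opposite order. Against Adarb2-gated nuclei the ratio was 2.66 ± 0.61 in Pvalb-gated and 0.70 ± 0.66 in Adarb2-gated nuclei (SD, n = 8), higher in 8 of 8 labels (exact permutation p = 0.00781, the smallest that 8 labels allow, adjusted 0.0117). Sst-gated and Adarb2-gated nuclei had ratios of 0.60 ± 0.70 and 0.83 ± 0.66 (SD, n = 6), a difference of -0.23 ± 0.27 that did not pass (exact permutation p = 0.125). With set A alone the difference of Pvalb-gated from Sst-gated nuclei was 1.70 (adjusted exact p = 0.0117, 9 of 10 labels), and that from Adarb2-gated nuclei was 1.66 and did not pass (adjusted exact p = 0.0938, 5 of 6 labels).

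**Figure D3:**
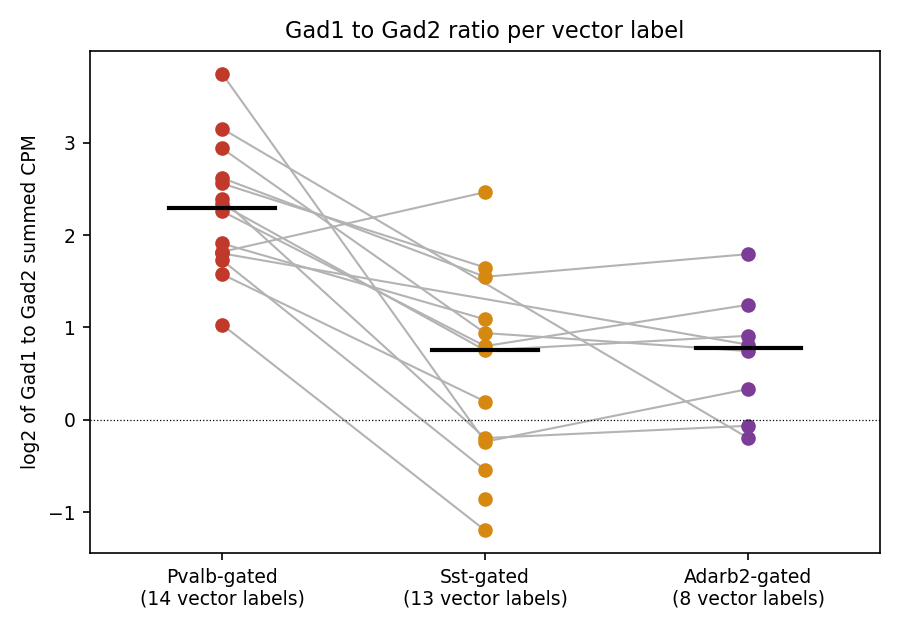
Each point is 1 vector label in 1 gate group, lines join the groups of the same label, black bars are medians, and the vertical axis is the log2 ratio of Gad1 to Gad2 summed CPM. The medians are 2.30 in Pvalb-gated, 0.75 in Sst-gated and 0.78 in Adarb2-gated nuclei, and 1 line to an Sst point rises.

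Single nuclei were also counted by which decarboxylase gene they lacked. Of 44 Pvalb-gated nuclei without a Gad2 read, 39 had Gad1, and of 8 without Gad1, 3 had Gad2. Of 17 Sst-gated nuclei without a Gad1 read, 14 had Gad2, and of 20 without Gad2, 17 had Gad1. A read of at least 1 decarboxylase gene was found in 294 of 303 interneuron-gated nuclei (97.0%) and in 13 of 350 Slc17a7-gated nuclei (3.71%). All 4 members together were read in 51 interneuron-gated nuclei (16.8%) and in none of the 350 Slc17a7-gated ones, and 8 interneuron-gated nuclei (2.64%) had none of the 4. The most frequent combination was Gad1 with Gad2 alone, in 76 nuclei. Gad1 was also read in 118 of 129 interneuron-gated nuclei with Slc32a1 (91.5%) and in 115 of 118 with Abat (97.5%). The share over all 303 interneuron-gated nuclei was 90.8%, so the share with Slc32a1 was close to that of all.

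Per kilobase of exon, the interneuron-gated sums were 171 CPM per kb for Gad1, 115 for Gad2, 17.9 for Abat and 10.2 for Slc32a1. Whether intronic reads were counted is not given in the sources used here, so these values are per exonic length only. After thinning each nucleus to 100000 reads, Slc32a1 was read in 29.8% of interneuron-gated nuclei instead of 42.6%, while the shares of Gad1 (90.7%) and Abat (39.1%) were close to those at full depth.

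By the share of nuclei with a read, the vesicular transporter and the transaminase genes were the members that varied most between library sets. In interneuron-gated nuclei Slc32a1 was read in 71.4% of 56 set B nuclei, 35.2% of 213 set A nuclei and 41.2% of 34 set C nuclei, and Abat in 66.1%, 31.9% and 38.2%. Gad1 shares were 94.6%, 90.6% and 85.3%, and Gad2 shares 85.7%, 69.0% and 73.5%. The summed level of Slc32a1 was 94.7 CPM in set B, 9.84 CPM in set A and 15.3 CPM in set C. Gad2 was at 1339, 495 and 499 CPM, Gad1 at 1965, 1144 and 1003 CPM, and Abat at 249, 111 and 91.5 CPM. Every label of sets B and C was also in set A, but no test was made between sets; the values within labels that had interneuron-gated nuclei in both sets A and B are given with the results by vector.

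Within set B, nuclei with many mitochondrial reads had all 4 genes more often and at a higher level. A limit of 1% mitochondrial reads, set after the data were seen, split the set B interneuron-gated nuclei into 26 above and 30 at or below it; no interneuron-gated nucleus of sets A or C passed it. All 26 nuclei above the limit had reads of Gad1, Gad2, Slc32a1 and Abat (exact 95% interval 86.8 to 100 for each). Of the 30 others, 27 had Gad1, 22 Gad2, 14 Slc32a1 (46.7%) and 11 Abat (36.7%), shares near those of sets A and C. Slc32a1 summed to 139.6 CPM above the limit and 31.8 CPM below it, Abat to 351 and 106 CPM, Gad2 to 1719 and 807 CPM and Gad1 to 2329 and 1456 CPM. The nuclei above the limit also had more reads and more genes, with medians of 457618 reads and 5903.5 genes, against 273755 reads and 3045.5 genes below it. After thinning to 100000 reads, 25 of 26 and 10 of 30 still had Slc32a1, and 26 of 26 and 11 of 30 still had Abat. These 26 nuclei comprised 13 Sst-gated, 7 Pvalb-gated and 4 Adarb2-gated nuclei and others with more than 1 interneuron gate, from 8 vector labels, 9 of them from AiE0391h. None of the 26 had a Slc17a7 read. The 30 others included 15 Pvalb-gated, 9 Sst-gated and 4 Adarb2-gated nuclei, a different mix. All 4 genes summed higher above the limit within Pvalb-gated and within Sst-gated nuclei. Within Adarb2-gated nuclei Gad2 went the other way, at 2252 CPM above the limit and 3005 CPM below it, and Slc32a1 was at 60.7 and 56.0 CPM. In Slc17a7-gated nuclei of set B, Abat was read in 10 of 35 nuclei above the limit (28.6%) and 6 of 58 below it (10.3%), while Slc32a1 was at 0 in all of both. The part of mitochondrial reads, depth, genes per nucleus and the mix of gates in these differences was not tested.

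**Figure D4:**
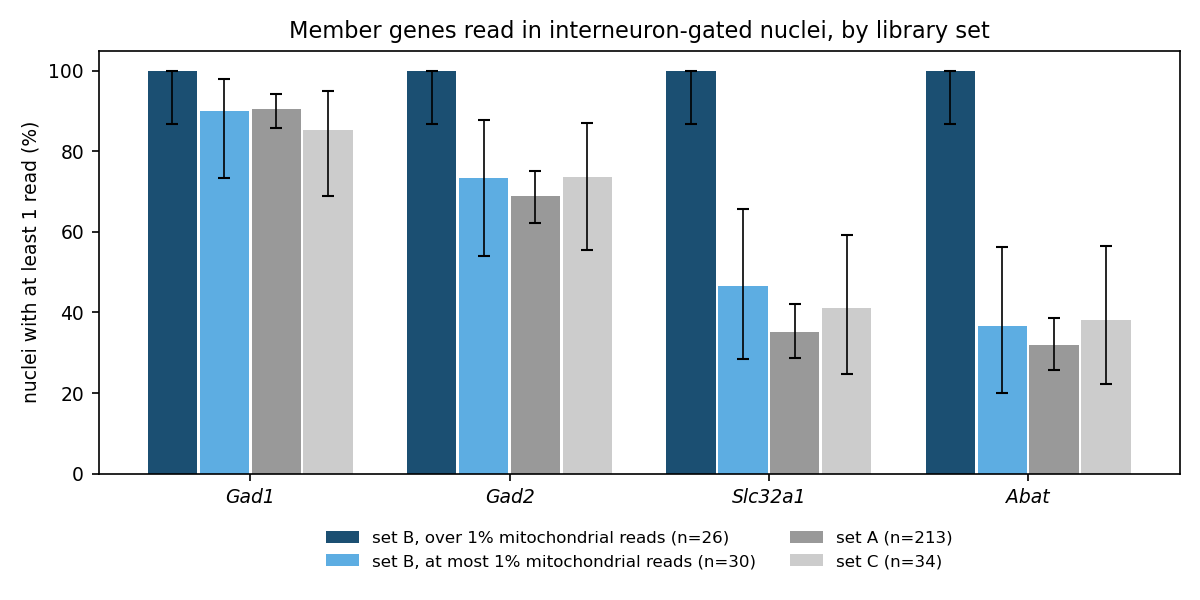
Bars give the percent of interneuron-gated nuclei with at least 1 read of each gene, with exact 95% intervals, for set B nuclei over 1% mitochondrial reads (26), set B nuclei at most at 1% (30), set A (213) and set C (34). The first bar is at 100% for all 4 genes, and the other 3 bars have overlapping intervals for each gene.

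Leaving out nuclei above the limit kept each call of a member: Gad1 was higher in Pvalb-gated than in Sst-gated nuclei, Gad2 was lower in Pvalb-gated than in Adarb2-gated nuclei, and all 4 members were higher in interneuron-gated than in Slc17a7-gated nuclei. The Gad1 to Gad2 ratio still differed between Pvalb-gated and Sst-gated nuclei by 1.48 (adjusted exact permutation p = 0.00586, 10 of 11 labels) and between Pvalb-gated and Adarb2-gated nuclei by 1.69 (adjusted 0.0234, 7 of 8).

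Over all kept nuclei the vectors differed widely, as did the share of their nuclei that was interneuron-gated, which ran from 0% for AiE0401h to 82.1% for hI56i. The share with a Gad1 read was lowest for AiE0401h (2.5%), AiE0387m (5.26%) and AiE0078h, AiE0140h and AiE0445h_3xC2 (7.5% each), and highest for AiE0600m (73.7%), AiE0450h (82.1%) and hI56i (84.6%). Labels next to each other in this order had overlapping exact 95% intervals. Slc32a1 had no read in any nucleus of AiE0078h, AiE0387m or AiE0401h, and was at its highest share for AiE0452h (43.6%). Within interneuron-gated nuclei, in the 15 labels with at least 3 such nuclei, Gad1 was read in 84% (AiE0682h) to 100%. Gad2 ran from 61.5% (DLX2.0) to 100%, Abat from 15% (AiE0410m) to 100%, and Slc32a1 from 12% (AiE0682h, 3 of 25 nuclei) to 100%. The labels at 100% for all 4 genes were AiE0391h, with 11 of 11 nuclei, and AiE0779m, with 3 of 3; all of these were in set B, and their median mitochondrial shares were 1.88% and 1.92%. Labels with interneuron-gated nuclei in both sets gave Slc32a1 sums of 134 CPM in set B and 16.9 CPM in set A for AiE0452h, 37.01 and 2.06 CPM for AiE0410m, 42.8 and 4.04 CPM for AiE0450h, 6.49 and 7.11 CPM for AiE0390m and 2.11 and 6.36 CPM for AiE0682h. Slc32a1 was thus higher in set B for 3 of these 5 labels, of which AiE0452h had a median mitochondrial share of 2.82% in set B and the other 4 labels medians near 0. The set B sums rest on only 5, 13, 4, 3 and 3 nuclei in the order given. AiE0450h and AiE0390m each had 1 set B nucleus over 1% mitochondrial reads.

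Some nuclei held reads of both a GABAergic enzyme gene and the glutamatergic transporter gene. Free RNA and joined nuclei can also give reads of another cell, and their part was not tested. Of 443 nuclei with a Slc17a7 read, Gad1 was also read in 51 (11.5%, exact 95% interval 8.69 to 14.9), Gad2 in 32 (7.22%), Slc32a1 in 21 (4.74%) and Abat in 57 (12.9%). At 10 CPM for both genes, 47 nuclei had Gad1 with Slc17a7 (6.02% of those kept), against 288 with Gad1 alone and 388 with Slc17a7 alone at that level. The 47 came from 19 vector labels, at most 6 from 1 label (AiE0475m and CMV), and made up 2.81% of set B, 6.98% of set A and 6.90% of set C.

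Both genes had lower medians in the nuclei that held both. Gad1 had a median of 571 CPM in the 47 nuclei and 1046 CPM in nuclei with Gad1 alone, and Slc17a7 a median of 205 CPM in the 47 and 701 CPM in nuclei with Slc17a7 alone. Gad2 was read in 24 of the 47 (51.1%), in 73.3% of nuclei with Gad1 alone and in 1.03% of those with Slc17a7 alone. Slc32a1 was read in 16 of the 47, in 43.1% with Gad1 alone and in 0.515% with Slc17a7 alone. Pvalb also reached 10 CPM in 24 of the 47, in 156 of 288 and in 6 of 388. At least 3 of the 6 GABAergic markers were read in 20 of the 47, at least 3 of the 5 glutamatergic markers other than Slc17a7 in 6, and both in 1. Their depth was like that of the rest, with a median of 308393 reads and 3056 genes, against 325050 reads and 3055.5 genes with Gad1 alone and 279332 reads and 2682 genes with Slc17a7 alone.

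**Figure D5:**
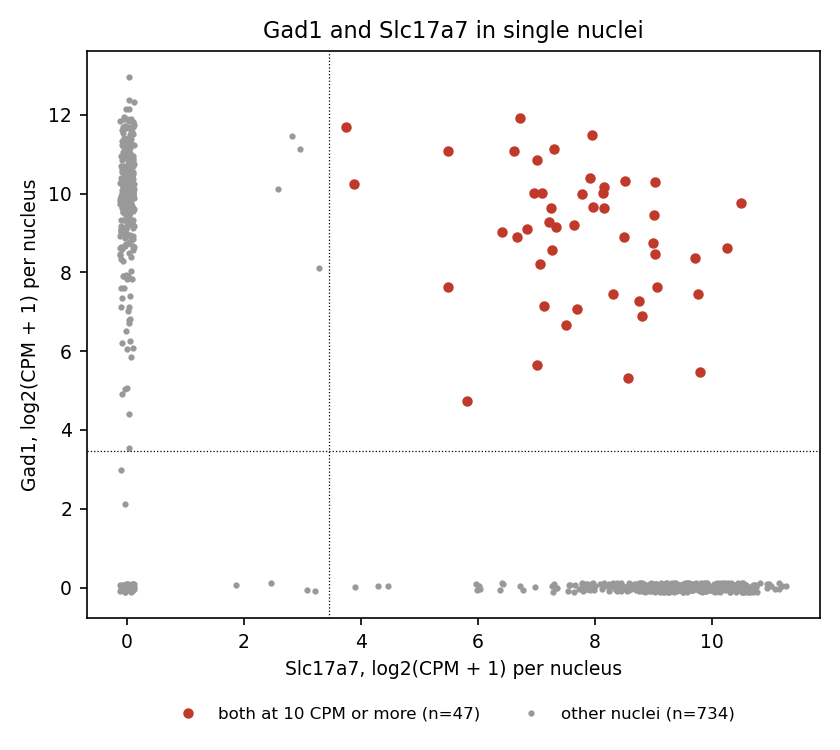
Each point is 1 of 781 nuclei, placed by its Slc17a7 level (horizontal) and Gad1 level (vertical), both as log2(CPM + 1); dotted lines mark 10 CPM, and points at 0 are spread slightly. Most nuclei lie along 1 axis, and the 47 red nuclei have both genes at 10 CPM or more.

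Co-detection was also counted by interneuron gate; nuclei are not replicates, and no test was made between gates. Among nuclei at 10 CPM for Slc17a7 and 1 interneuron gate gene, Gad1 was read in 18 of 24 with Pvalb (75%, 53.3 to 90.2), in 7 of 14 with Adarb2 (50%, 23.04 to 76.96) and in 5 of 39 with Sst (12.8%, 4.30 to 27.4). Gad2 was read in 12, 4 and 1 of these nuclei, and Slc32a1 in 9, 3 and 0. In the 43 nuclei that reached no gate, 15 had Gad1 and 14 had Gad2. Of the 43, 11 had at least 3 of 7 astrocyte markers; Abat was read in 4 of the 11 and Gad1, Gad2 and Slc32a1 in none, where 0 of 11 allows a share of up to 27.3% by a limit of 3 counts (28.5% by the exact 95% interval).

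Among 6007 genes read in at least 20% of nuclei, those most like each member were ranked by Pearson's r of log2(CPM + 1) over 781 nuclei, which share depth and cell class, so the values are descriptions. For Gad1 the 5 highest included Maf (r = 0.72), Gad2 (0.68), Erbb4 (0.67) and Nxph1 (0.59), and the lowest was Slc17a7 (-0.76). Maf encodes a transcription factor, Erbb4 the neuregulin receptor of interneurons and Nxph1 a secreted neurexin ligand. Those of Gad2 included Gad1, Maf, Nxph1 and Npy, and those of Slc32a1 included Gad2 (0.50), Gad1, Dlx1 and Maf. For Abat they included Gad1 (0.34), Cacna2d2, Maf and Rbms3, and the lowest was Arpp21 (-0.33). Within the 303 interneuron-gated nuclei the members were only weakly related: r was 0.13 for Gad1 with Gad2, 0.25 for Slc32a1 with Gad2, 0.22 for Slc32a1 with Abat and 0.05 for Gad1 with Slc32a1.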

How the data were processed

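Whole-number read counts per gene and nucleus were deposited by the authors as 1 table of 32285 genes. Per the labels' protocols, nuclei were amplified from polyadenylated RNA with SMART-Seq v4 and made into libraries with Nextera XT; STAR 2.7.2a and mm10 are named in the submitters' processing notes. Not given in the sources used here are the counting tool, its strand setting and its use of introns. Of the table's columns, 1704 matched no sample label and were not used. Genes without a symbol held 0.0931% of reads. There are no molecular identifiers, so intervals and limits cover counting error only. Depth ranged from 50565 to 666436 reads over the 781 nuclei kept.

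CPM and log2(CPM + 1) were computed from the counts. Detection means at least 1 read; exact 95% intervals are Clopper-Pearson. Shares were recomputed after thinning each nucleus to 100000 reads. Counts were summed over the nuclei of a vector label and gate group with at least 3 nuclei in each group compared, and tested with edgeR 4.0.16 (quasi-likelihood F test, label as block, TMM, low-count filter) at a Benjamini-Hochberg adjusted p of 0.05; the gate genes were left out of the counts of called genes. DESeq2 1.42.0 was an alternative. The test was tested on simulated data with known changes. The Gad1 to Gad2 ratio was compared with exact two-sided sign-flip permutation tests.

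The members, gates and gene lists were chosen with earlier results of these data known. Named genes are the 4 members, the called genes of a list of 26 metabolism and transport genes, and for each member the 5 genes with the highest correlation; some genes these rules name are not reported here. The alternatives were DESeq2 in place of edgeR, no filter, a gate of 50 CPM or of any read, set A alone, and label with set as block. Further ones were at least 5 nuclei, exact sign-flip tests of mean log2(CPM + 1) and each label left out. The runs without nuclei over 1% mitochondrial reads, with at least 2 GABAergic markers, and the ratio test were added after seeing the data.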

Additional observations from a re-analysis of the deposited data

Results flagged for a closer look

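The summed level of Slc32a1, the vesicular GABA transporter gene, in Adarb2-gated nuclei was highest for AiE0447h. It was 46.3 CPM over 3 nuclei, far from the 2.11 to 22.3 CPM of the other 7 vector labels. On the mean of log2(CPM + 1) AiE0447h was not the highest, at 2.43 against 3.45 for CMV, 2.74 for AiE0452h and 2.71 for DLX2.0. The highest single nucleus of AiE0447h, at 7.29, gives the 2.43 over 3 nuclei by itself, with the others at 0. Of the 8 interneuron-gated nuclei of this label, 7 were in set B, and their median share of mitochondrial reads was 0%. A single label standing this far apart was the only one among 5 groups of labels looked at, and chance alone flags some such groups. These 5 were all groups of Adarb2-gated nuclei, because the rule covered only groups with few labels. Pvalb-gated, Sst-gated, Slc17a7-gated and interneuron-gated sums were not looked at in this way. Among Pvalb-gated sums, Slc32a1 was at 231 CPM for AiE0391h and 60.3 CPM for hSyn1, the next label.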

How the results depend on the processing

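The higher Gad1 and Gad2 in interneuron-gated than in Slc17a7-gated nuclei stayed called under every alternative run. Slc32a1 stayed called wherever it had a result. Apart from labels left out, that was 8 alternatives, against 10 for Gad1 and Gad2. Gad1 between Pvalb-gated and Sst-gated nuclei stayed called with each label left out (log2 difference 0.83 to 1.01), as did Gad2 between Pvalb-gated and Adarb2-gated nuclei (-2.54 to -2.06) and Abat between interneuron-gated and Slc17a7-gated nuclei (4.44 to 5.51); the settings that ended these calls stand beside them above. Numbers of called genes moved more. For Pvalb-gated against Sst-gated nuclei 144 genes were called, against 1119 with DESeq2, 299 without a filter, 65 with set A alone, 55 with at least 5 nuclei, 55 with at least 2 GABAergic markers, 89 without nuclei over 1% mitochondrial reads, and 107 to 145 with a label left out. For Pvalb-gated against Adarb2-gated nuclei 90 were called, against 2022 with DESeq2, 190 without a filter, 29 with set A alone, 53 with label and set as block, 8 with at least 5 nuclei, 27 with GABAergic markers, and 46 to 70 with a label left out, the lower values without AiE0390m (46), CMV (48), AiE0452h (49), AiE0447h (51) or AiE0600m (55). For Sst-gated against Adarb2-gated nuclei 27 were called, against 839 with DESeq2, 59 without a filter, 12 with set A alone, 16 with label and set as block, 15 without nuclei over 1% mitochondrial reads, and 18 to 26 with a label left out. For interneuron-gated against Slc17a7-gated nuclei 802 were called, against 2468 with DESeq2, 38 with set A alone (5 labels), 164 with label and set as block, 530 without nuclei over 1% mitochondrial reads, and 594 to 777 with a label left out. The cause was not tested.

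Slc32a1 was read in 29.8% of interneuron-gated nuclei after thinning and reached 10 CPM in 27.4%, and 2.76% of nuclei with Slc17a7 at 10 CPM had it at that level. The ratio difference of Pvalb-gated from Adarb2-gated nuclei fell short of the threshold with set A alone (1.66). No call rested on the values that changed sign. Between Pvalb-gated and Sst-gated nuclei these were Slc32a1 with a gate of 50 CPM (-0.094), at least 5 nuclei (-0.46) and sign-flip tests of mean log2(CPM + 1) (-0.028), and Abat with at least 5 nuclei (0.083), without nuclei over 1% mitochondrial reads (0.20) and over labels left out (-0.43 to 0.14). Between Pvalb-gated and Adarb2-gated nuclei they were Slc32a1 by sign-flip (-0.35) and over labels left out (-0.13 to 0.57), and Abat with set A alone (-1.47), label and set as block (-1.31), at least 5 nuclei (-0.80), GABAergic markers (-0.50), sign-flip (-0.17) and labels left out (-0.11 to 0.87). Between Sst-gated and Adarb2-gated nuclei they were Abat with set A alone (-0.81), label and set as block (-0.72), at least 5 nuclei (-1.86), GABAergic markers (-0.61), without nuclei over 1% mitochondrial reads (-0.035) and labels left out (-0.22 to 1.32). The exact sign-flip tests of mean log2(CPM + 1) gave an unadjusted p under 0.05 for Gad1 in 2 comparisons where edgeR did not pass after adjustment. These were Pvalb-gated against Adarb2-gated nuclei (-1.31) and Sst-gated against Adarb2-gated nuclei (-2.69). The thresholds differ, and without adjustment the edgeR p for Gad1 was 0.096 in the first and 0.0046 in the second. The tests above pair gate groups within a vector label. No paired analysis was possible by replicate number, because these numbers count nuclei within a label and no label ties nuclei of different vectors to 1 animal.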
